A study of Mus musculus with 9 samples.

Results

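The circadian clock genes Arntl, Clock, Npas2, Per1, Per2, Per3, Nr1d1, Nr1d2, Dbp and Tef were followed in whole kidneys of wild type mice, mice lacking Pkd2 and mice lacking both Pkd2 and Ift88. These 10 genes were taken by symbol from a table of 22136 named genes. All 10 were among the 15717 genes tested, which had a mean of at least 10 normalized counts over the 9 libraries. Pkd2 encodes polycystin-2, a ciliary channel mutated in some families with autosomal dominant polycystic kidney disease. Without IFT88, a part of the transport machinery of cilia, cells fail to build a primary cilium. The wild type group is labelled only as such. The Pkd2 knockout group is Pkd2fl/fl;Pax8rtTA;TetO-cre, and the double knockout group is Ift88fl/fl;Pkd2fl/fl;Pax8rtTA;TetO-cre. Each group held 3 mice, called biological replicates by the study. All 9 mice were C57BL/6, all, the wild type mice included, were given doxycycline (2 mg/ml, 2 weeks, begun on postnatal day 28), and all kidneys were taken at 10 weeks of age (postnatal day 70). Pax8rtTA switches Cre on in tubule epithelium under doxycycline, so that other kidney cells keep the floxed genes. Poly(A) RNA was sequenced from total kidney RNA. The mice are written WT 1 to 3, KO 1 to 3 and DKO 1 to 3, from the replicate numbers in the labels. The hour of the day at which each kidney was taken is not given in the sources used here, so every member is shown in every mouse and the part of harvest time in any difference was not tested.

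The molecular clock is a transcriptional feedback loop that runs in nearly every cell, kidney tubule cells included. The proteins encoded by Arntl (BMAL1) and by Clock or its relative Npas2 pair up and activate genes with E-box elements, among them the Per and Cry repressors, Nr1d1 and Nr1d2 (REV-ERB alpha and beta) and Dbp. The PER and CRY proteins then inhibit the activators, REV-ERB proteins repress Arntl and Npas2 through RORE elements, and Dbp and Tef encode PAR bZIP factors that act on D-box elements. In a normal mouse tissue the transcripts of Arntl and Npas2 therefore peak at a different time of day from those of Dbp and the Per genes, and Clock varies little over the day.

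The promoters below are from those members in which a match to any of these elements was found. RefSeq promoters (GRCm38.p6, 250 bases before to 50 after a start site) were matched for 9 of the 10 members, all but Per2. Capitals mark matches to the E-box CACGTG in Per1 and Tef, to the D-box TTATGTAA in Per3 and to the RORE TAGGTCA in Arntl, each printed 5′ to 3′ on the strand of the gene.
Arntl (chr7:113207261-113207560, plus strand): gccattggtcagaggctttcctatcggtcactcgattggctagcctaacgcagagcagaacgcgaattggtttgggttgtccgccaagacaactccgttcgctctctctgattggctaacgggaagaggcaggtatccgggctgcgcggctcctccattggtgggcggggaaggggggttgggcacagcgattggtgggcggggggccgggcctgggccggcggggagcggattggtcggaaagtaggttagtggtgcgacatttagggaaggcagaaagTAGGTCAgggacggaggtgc
Per1 (chr11:69098699-69098998, plus strand): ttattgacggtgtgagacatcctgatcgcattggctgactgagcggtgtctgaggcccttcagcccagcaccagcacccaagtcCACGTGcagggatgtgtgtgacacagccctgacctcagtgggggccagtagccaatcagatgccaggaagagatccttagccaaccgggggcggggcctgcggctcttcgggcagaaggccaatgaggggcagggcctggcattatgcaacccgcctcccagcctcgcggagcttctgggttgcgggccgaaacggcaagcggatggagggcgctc
Per3 (chr4:151044616-151044915, minus strand): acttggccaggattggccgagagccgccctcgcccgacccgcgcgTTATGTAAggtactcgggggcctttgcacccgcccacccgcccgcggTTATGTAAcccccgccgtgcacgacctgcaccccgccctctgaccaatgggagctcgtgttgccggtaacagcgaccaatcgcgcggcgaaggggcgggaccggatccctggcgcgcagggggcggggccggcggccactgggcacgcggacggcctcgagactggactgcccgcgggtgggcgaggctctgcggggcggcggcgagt
Tef (chr15:81802423-81802722, plus strand): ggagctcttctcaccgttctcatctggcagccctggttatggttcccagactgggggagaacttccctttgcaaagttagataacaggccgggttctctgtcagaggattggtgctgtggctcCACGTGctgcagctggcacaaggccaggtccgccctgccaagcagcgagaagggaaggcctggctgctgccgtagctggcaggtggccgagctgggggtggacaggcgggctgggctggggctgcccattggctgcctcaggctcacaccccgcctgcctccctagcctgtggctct
The Arntl window shown is the second of its promoters, and its RORE begins at position 30 after the start site. The E-box begins at -166 in Per1 and at -127 in Tef, and the second Tef promoter holds another at -138. The D-boxes of Per3 begin at -205 and -158. Both strands were searched, with TTACGTAA as a second D-box word, TGGGTCA as a second RORE word and TGACGTCA as the cyclic AMP element, and no match overlapped another in these windows. Of the 9 matched members, 2 held an E-box, 1 a D-box, 1 a RORE and 0 the cyclic AMP element. The windows of Clock, Npas2, Nr1d1, Nr1d2 and Dbp held no match to any of these words. Of all 27025 genes with a promoter in the table, 8.09% held the E-box in at least 1 of their promoters, 1.23% a D-box, 7.35% a RORE and 2.03% the cyclic AMP element. Of the 32851 single promoters, 7.15% held the E-box, 1.06% a D-box, 6.45% a RORE and 1.79% the cyclic AMP element. A match is a run of letters and not a measured binding site.

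The libraries held 36993769 to 47235872 reads on named genes, and the share of mitochondrial genes ran from 9.22% to 10.8% of normalized counts. Pkd2 was 13768 to 14505 normalized counts in wild type, 4723 to 5549 in the Pkd2 knockouts and 3777 to 5181 in the double knockouts. Ift88 was 1056 to 1132, 1086 to 1214 and 691 to 831 in the same order, so both genes followed the labels. The kidney marker Umod, the uromodulin gene of the thick ascending limb, was at 69605 or above in every mouse. Avpr2, a marker of principal cells, was at 9.34 or below and was not among the genes tested. The adrenal enzymes Cyp11a1 and Cyp11b1 were at 4.02 normalized counts or below, while Star, also on the adrenal list, was at 101 to 161. The summed level of 5 thick ascending limb markers was 348736 to 368718 in wild type, 162575 to 201525 in the Pkd2 knockouts and 214091 to 285894 in the double knockouts. The summed level of 4 markers of dividing cells was 293.0 to 393 in wild type, 1840.2 to 2279 in the Pkd2 knockouts and 358 to 816 in the double knockouts. Between Pkd2 knockout and wild type, all 5 thick ascending limb markers were lower, and 3 of them passed with limma at an adjusted p under 0.05. All 4 markers of dividing cells were higher and passed, against 2.40% of all genes. Sums of distal convoluted tubule markers were also separate, at 32978.7 to 37262.5 in the Pkd2 knockouts against 51000.6 to 59612.8 in wild type. The principal cell, intercalated cell and podocyte sums were likewise lower in every Pkd2 knockout mouse. Fibroblast sums were higher, at 4399.2 to 6432.2 against 3032.3 to 3829.6, as were the proximal tubule and macrophage sums. The endothelial, lymphocyte, erythroid, adrenal and adipocyte sums overlapped. The part of these shifts in the clock gene values was not tested. In whole-kidney RNA, fewer cells of a type and less RNA per cell cannot be told apart.

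No member passed the adjusted threshold in any of the 3 comparisons, and the widest departures lay in single mice. Clock, Nr1d1 and Per1 came nearest, all between Pkd2 knockout and wild type. Arntl and Npas2 were far higher in DKO 3 than in any other mouse. Values below are normalized counts in mice 1, 2 and 3 of each group, and group values are the mean ± SD of 3 mice. Levels are not compared between genes, since they were not divided by transcript length.

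**Figure D1:**
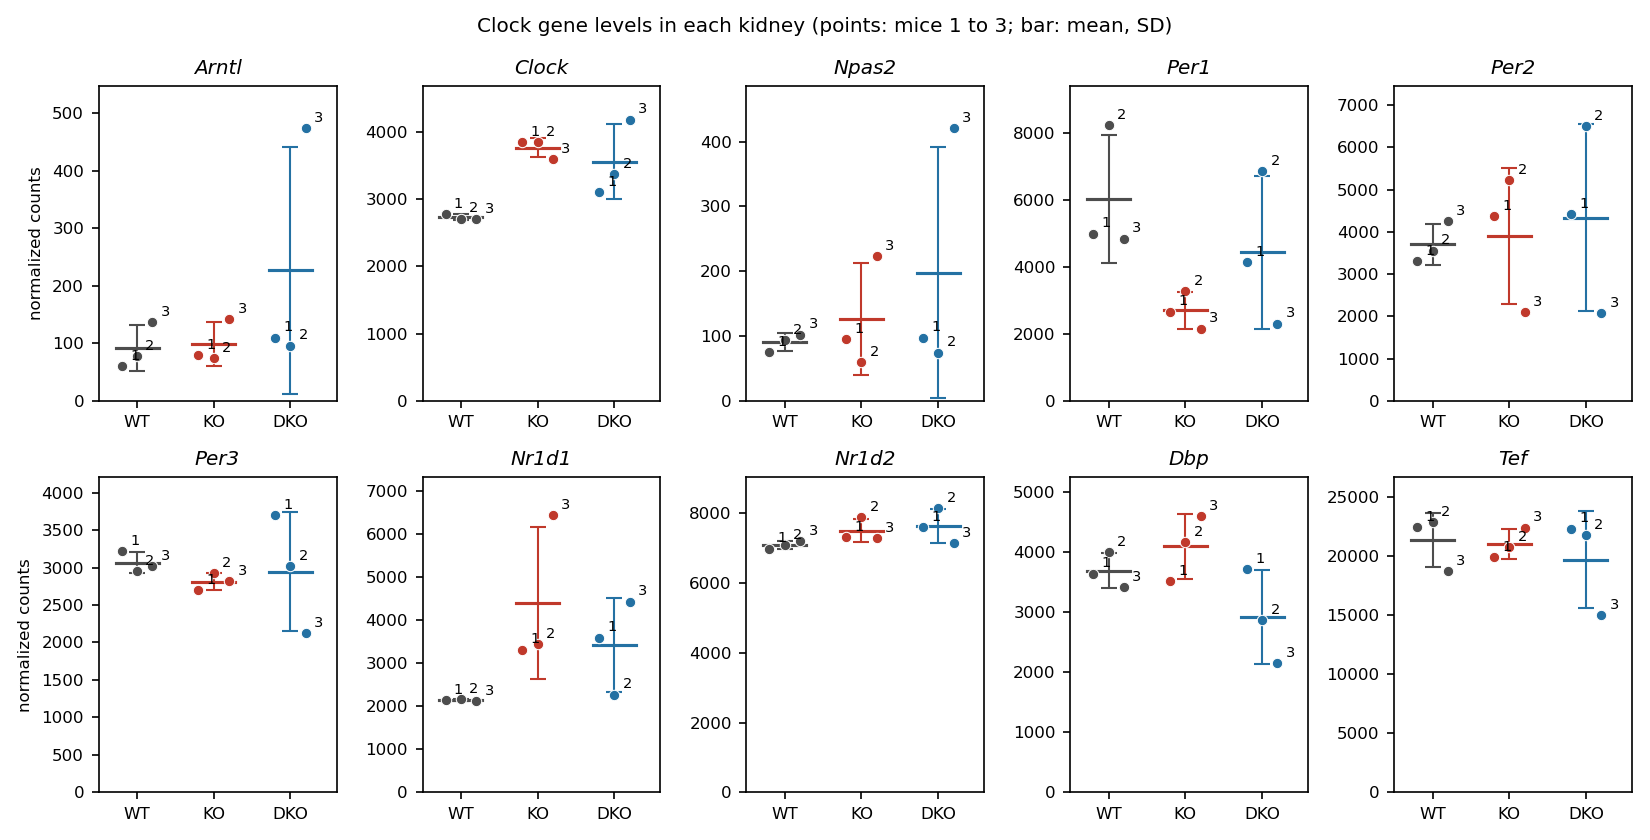
Normalized counts of the 10 clock genes (y axes, linear from 0) in the 3 wild type (WT), 3 Pkd2 knockout (KO) and 3 double knockout (DKO) mice; points are mice 1 to 3, the horizontal bar is the group mean and the error bar 1 SD. Clock and Nr1d1 are higher in every Pkd2 knockout mouse than in every wild type mouse, Per1 is lower, and DKO 3 stands far above the other mice for Arntl (474) and Npas2 (421).

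Arntl, the obligate activator of the loop, was at 60.3, 77.8 and 137 in wild type, 79.5, 73.8 and 142 in the Pkd2 knockouts and 109.9, 96 and 474 in the double knockouts. DKO 3 had more than any other mouse, and WT 3 and KO 3 were the highest of their own groups. The groups overlapped, and the log2 fold changes were 0.12 ± 0.58 (SE) for Pkd2 knockout over wild type, 0.86 ± 0.58 for double over Pkd2 knockout and 0.98 ± 0.58 for double knockout over wild type (limma, adjusted p = 0.938, 0.702 and 0.562). Without DKO 3 the last value was 0.25.

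Npas2, which can stand in for Clock as the partner of BMAL1, was at 75.3, 93.5 and 102 in wild type, 95.3, 59.8 and 223 in the Pkd2 knockouts and 97.7, 74.3 and 421 in the double knockouts. DKO 3 and KO 3 were the 2 highest mice, while KO 2 and DKO 2 were the 2 lowest. The double knockout averaged 198 ± 194 against 90.4 ± 13.8 in wild type, an SD close to its mean. The log2 fold changes were 0.27 ± 0.64, 0.42 ± 0.64 and 0.69 ± 0.64 (limma, adjusted p = 0.863, 0.903 and 0.726). Without DKO 3 the second became -0.35 and the third -0.07, so that their direction rested on that mouse, and without KO 3 the first became -0.24.

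Clock, the partner most tissues use, was at 2777, 2706 and 2705 in wild type, 3840.3, 3842 and 3593 in the Pkd2 knockouts and 3103, 3371 and 4177 in the double knockouts. All 6 mice with a deletion lay above all 3 wild type mice, whose values differed by little. The Pkd2 knockout mean was 3759 ± 143, or 138% of the wild type mean of 2729 ± 41.4, with a log2 fold change of 0.46 ± 0.10 (95% interval 0.23 to 0.69, limma, adjusted p = 0.0513). The double knockout mean was 3551 ± 559, 130.1% of wild type, with a log2 fold change of 0.37 ± 0.10 (interval 0.14 to 0.60, adjusted p = 0.216). The 2 knockout groups overlapped, with a log2 difference of -0.09 ± 0.10 (interval -0.32 to 0.13, adjusted p = 0.848). The first difference stood just outside the threshold: its adjusted p ran from 0.00228 to 0.353 over the alternatives, and leaving out DKO 1 or DKO 3, which enter only through the shared spread, gave 0.0424 and 0.0114.

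Per1, a repressor that also answers quickly to hormones and light, was at 4998, 8248 and 4849 in wild type, 2666, 3283 and 2163 in the Pkd2 knockouts and 4148, 6862 and 2307 in the double knockouts. Every Pkd2 knockout mouse lay below every wild type mouse, while the double knockouts ran from near the lowest of all to near the highest. The Pkd2 knockout mean was 2704 ± 561, or 44.8% of the wild type mean of 6032 ± 1921. The log2 fold change was -1.13 ± 0.36 (interval -1.95 to -0.31), which did not pass after adjustment (limma, adjusted p = 0.145). For double over Pkd2 knockout it was 0.60 ± 0.36 (adjusted p = 0.652), and for double knockout over wild type -0.54 ± 0.36 (adjusted p = 0.617).

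Per2, the repressor most closely tied to the period of the clock, was at 3308, 3554 and 4254 in wild type, 4382, 5230.2 and 2099.7 in the Pkd2 knockouts and 4413, 6511 and 2078 in the double knockouts. KO 3 and DKO 3 were the 2 lowest of the 9 mice, and DKO 2 was the highest. The 3 group means lay between 3705 and 4334, and the log2 fold changes were -0.02 ± 0.42, 0.10 ± 0.42 and 0.09 ± 0.42 (limma, adjusted p = 0.988, 0.967 and 0.958). Without KO 3 the first became 0.38.

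Per3, the third period gene, was at 3219.9, 2952 and 3017 in wild type, 2697, 2924 and 2819 in the Pkd2 knockouts and 3702, 3014 and 2121 in the double knockouts. Its Pkd2 knockout values lay just under those of wild type, and the double knockouts held both the highest mouse, DKO 1, and the lowest, DKO 3. The log2 fold changes were -0.12 ± 0.17, 0.03 ± 0.17 and -0.09 ± 0.17 (limma, adjusted p = 0.746, 0.977 and 0.874).

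Nr1d1, encoding the repressor REV-ERB alpha, was at 2148, 2167 and 2126 in wild type, 3319.9, 3455 and 6437 in the Pkd2 knockouts and 3597, 2271 and 4432 in the double knockouts. The 3 wild type mice lay between 2126 and 2167, and all 6 mice with a deletion were above them, though DKO 2 only slightly. KO 3 was the highest. The Pkd2 knockout mean was 4404 ± 1762, 205% of the wild type mean of 2147 ± 20.5. The log2 fold change was 0.97 ± 0.28 (interval 0.33 to 1.60, limma, adjusted p = 0.115), and 0.66 without KO 3. For double knockout over wild type it was 0.62 ± 0.28 (interval -0.01 to 1.26, adjusted p = 0.434), and for double over Pkd2 knockout -0.34 ± 0.28 (adjusted p = 0.771).

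Nr1d2, encoding REV-ERB beta, was the steadiest member, at 6990.2, 7098 and 7210.4 in wild type, 7328, 7901 and 7291 in the Pkd2 knockouts and 7613, 8148 and 7147 in the double knockouts. Its highest mouse had 1.17 times the level of its lowest. The Pkd2 knockout values lay just above those of wild type, with a log2 fold change of 0.08 ± 0.07 (interval -0.07 to 0.23, limma, adjusted p = 0.567).

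Dbp, an output factor with one of the widest daily swings in liver and kidney, was at 3643, 4004 and 3422 in wild type, 3515, 4165 and 4599 in the Pkd2 knockouts and 3716, 2868 and 2154 in the double knockouts. KO 3 was the highest mouse and DKO 3 the lowest, and DKO 2 and DKO 3 lay below every mouse of the other groups. The double knockout mean was 2913 ± 782, or 71.2% of the Pkd2 knockout mean of 4093 ± 546. The log2 fold change was -0.52 ± 0.18 (interval -0.92 to -0.11), which did not pass after adjustment (limma, adjusted p = 0.314), and -0.32 without DKO 3. For Pkd2 knockout over wild type it was 0.14 ± 0.18 (adjusted p = 0.721).

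Tef, the related output factor, was at 22408, 22850.0 and 18691 in wild type, 19910.5, 20738 and 22376 in the Pkd2 knockouts and 22296, 21743 and 14959 in the double knockouts. DKO 3 was the lowest mouse and WT 3 the next, and the other 7 lay between 19910.5 and 22850.0. The log2 fold changes were -0.02 ± 0.15, -0.12 ± 0.15 and -0.13 ± 0.15 (limma, adjusted p = 0.969, 0.874 and 0.779).

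Between Pkd2 knockout and wild type, 0 of the 10 members passed with limma or edgeR, against 2.40% and 2.42% of all genes. DESeq2 on the same recovered reads called 2, Clock (adjusted p = 0.00228) and Nr1d1 (adjusted p = 0.00586), both higher, against 7.46% of all genes. At an unadjusted p under 0.05, limma had 2 members higher, Clock and Nr1d1, and 1 lower, Per1, against 18.0% of all genes. The groups did not overlap for 3 members that were higher (Clock, Nr1d1 and Nr1d2) and 2 that were lower (Per1 and Per3), against 25.2% of all genes. The median log2 fold change of the members was 0.10, beside 0.00 for all genes tested. The activator Clock and the repressor Nr1d1 thus lay on the high side of the Pkd2 knockouts, and Per1 on the low side. Nr1d2 and Per3 were also separate, though by log2 fold changes of only 0.08 and -0.12. Per2, Arntl, Npas2, Dbp and Tef overlapped.

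Between double and Pkd2 knockout, 0 members passed with limma, edgeR or DESeq2, against 0.394%, 0.420% and 3.01% of all genes. At an unadjusted p under 0.05 limma had 1 member, Dbp, lower, against 10.7% of all genes, and no member's groups failed to overlap, against 15.2%. The median log2 fold change of the members was 0.03, beside 0.00 for all genes.

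Between double knockout and wild type, 0 members passed with limma or edgeR, against 0.229% and 0.210% of all genes, and DESeq2 called 1, Clock (adjusted p = 0.0416), against 2.68%. At an unadjusted p under 0.05 limma had 1 member, Clock, against 11.7% of all genes. The groups did not overlap for 2, Clock and Nr1d1, both higher, against 18.3%. The median was 0.09, beside 0.00 for all genes. The comparisons with wild type share the 3 wild type mice, so the position of Clock and Nr1d1 in both is not a repeated observation.

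**Figure D2:**
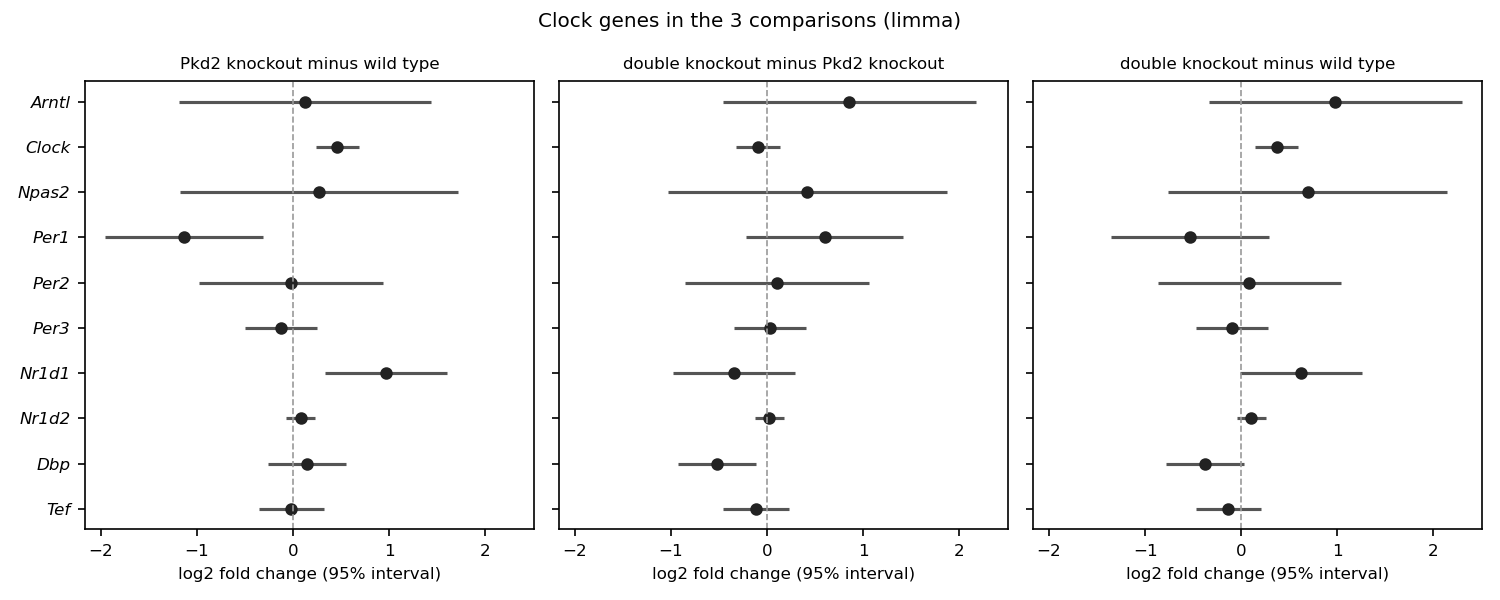
Log2 fold changes of the 10 clock genes (x axis, points) with 95% intervals (lines) from limma in the 3 comparisons (panels), with no change as the dashed line. Clock and Nr1d1 lie to the right of 0 and Per1 to the left for Pkd2 knockout over wild type, and the intervals of Arntl and Npas2 are the widest in every panel.

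The spread between mice of one group was itself uneven among the members. The within-group SD on the log2 scale was 0.96 for Npas2, 0.86 for Arntl, 0.64 for Per2 and 0.55 for Per1, which placed these 4 above 97.6%, 96.9%, 93.7% and 90.7% of the genes tested, whose median was 0.18. Nr1d1 stood at 0.42 (percentile 84.0), Dbp at 0.26 (67.3), Per3 at 0.24 (63.7) and Tef at 0.21 (58.7). Clock, at 0.13 (34.9), and Nr1d2, at 0.07 (7.48), were quieter than the median gene.

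DKO 3 was the highest or the lowest of the 9 mice for 7 of the 10 members, against 21.8% of all genes tested. It was the highest for Arntl, Clock and Npas2, the activators, and the lowest for Per2, Per3, Dbp and Tef. KO 3 was at an end for 3 members, the highest for Nr1d1 and Dbp and the lowest for Per1, against 28.2% of all genes. KO 3 and DKO 3 shared low Per1 and Per2 and high Npas2 and Nr1d1, but stood at opposite ends for Dbp. On the log2 scale Arntl minus Per2 was -2.13 in DKO 3 and -3.87 in KO 3, and between -6.13 and -4.95 in the other 7 mice. Arntl minus Dbp was -2.18 in DKO 3 and between -5.89 and -4.63 in the others, KO 3 included at -5.00.

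**Figure D3:**
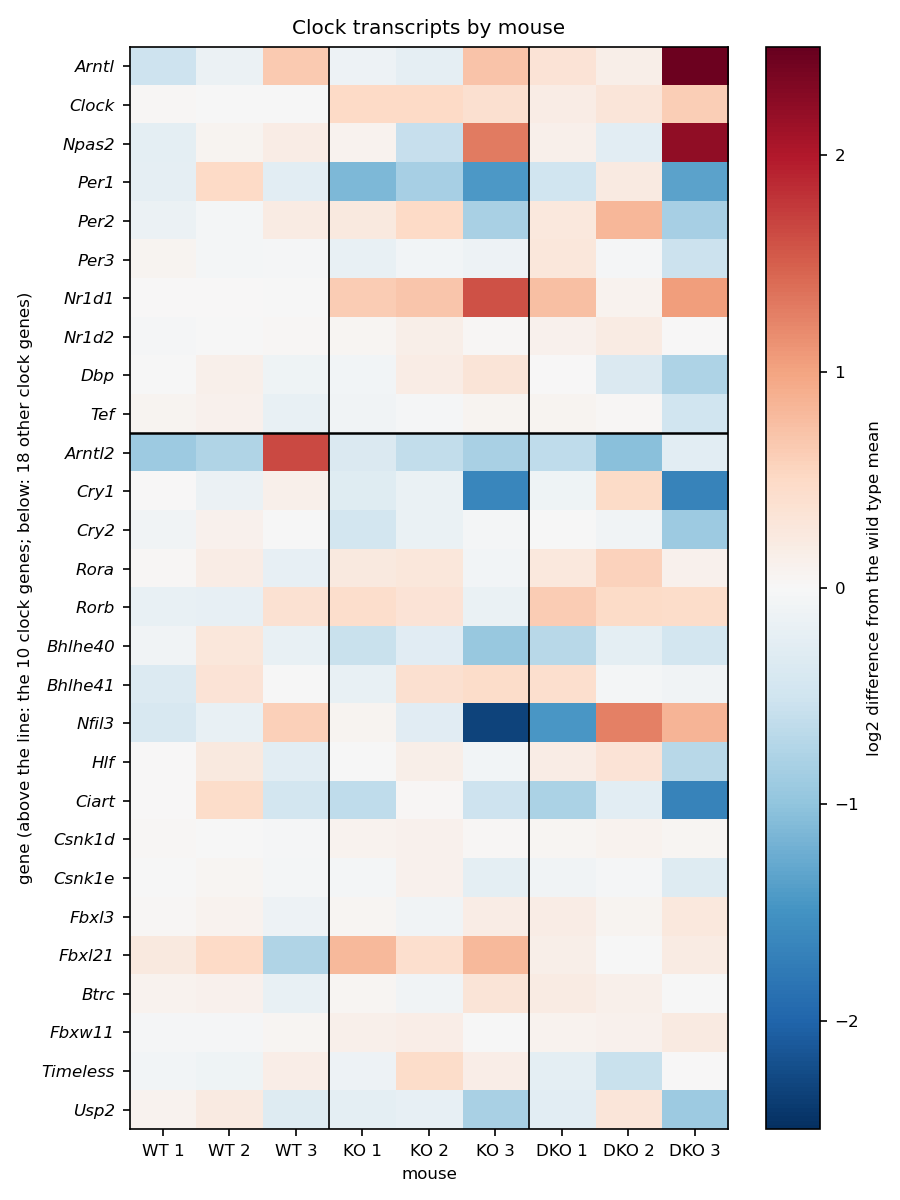
Log2 difference of each clock transcript from the wild type mean (colour, from -2.5 to 2.5) in each of the 9 mice (columns), with the 10 members above the line and 18 other clock genes below it. The DKO 3 column is red for Arntl, Clock, Npas2 and Nr1d1 and blue for the Per genes, Dbp, Tef, Cry1 and Ciart; KO 3 shares the blue of Per1, Per2 and Cry1.

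Arntl was set against each of the other 9 members across the 9 mice, on log2 normalized counts plus 1. Npas2 followed it most closely, with Pearson r = 0.91 (exact permutation p = 0.00181, adjusted over 9 pairs 0.0163) and Spearman rho = 0.867 (exact p = 0.00451, adjusted 0.0406). Without WT 1 and DKO 3, the 2 mice farthest from the median of Arntl, r was 0.73 over 7 mice. Of the deviations from the group means, r was 0.92. Tef ran the other way with r = -0.83 (exact permutation p = 0.0296, adjusted 0.133; rho = -0.50, exact p = 0.178, adjusted 0.400), but r was -0.12 without those 2 mice, so that relation rests on them. The other 7 pairs had r between -0.70 for Per3 and 0.50 for Nr1d1, and none passed (exact permutation, lowest adjusted p = 0.151 for r and 0.400 for rho). Per2 had r = -0.61, and -0.50 without the 2 mice.

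**Figure D4:**
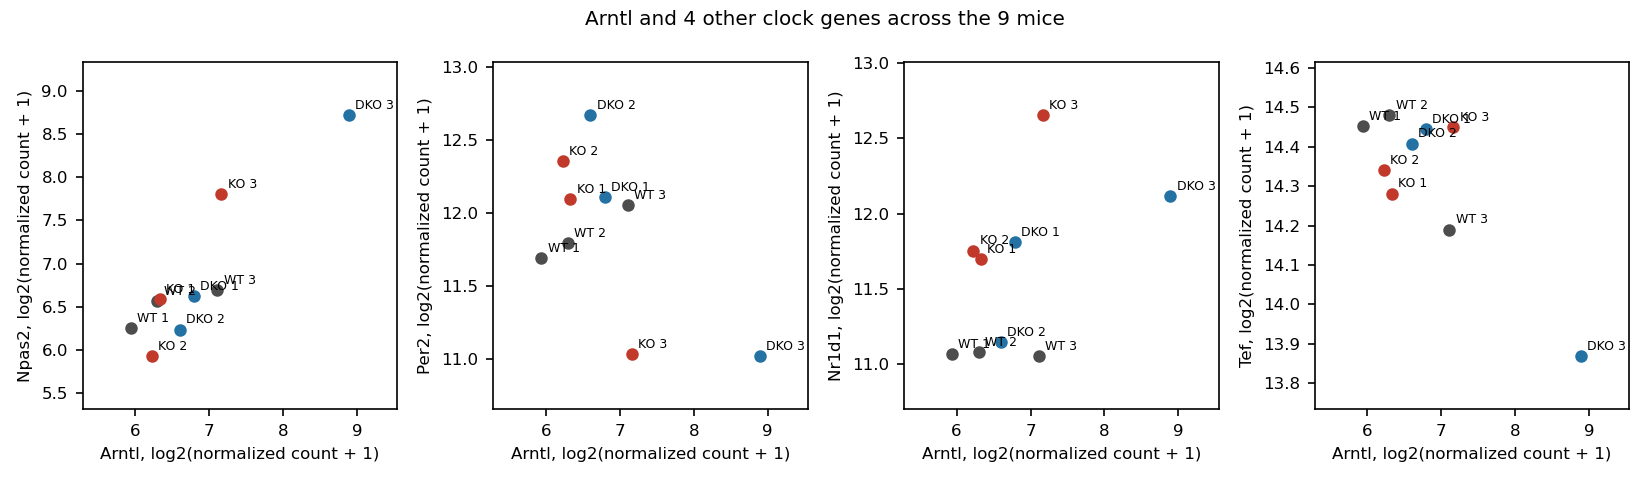
Arntl (x axis) against Npas2, Per2, Nr1d1 and Tef (y axes) in each of the 9 mice, on log2(normalized count + 1), coloured by group (grey wild type, red Pkd2 knockout, blue double knockout). DKO 3 lies at the right of each panel, Npas2 rises along Arntl (r = 0.91), and KO 3 and DKO 3 lie together at the bottom of the Per2 panel.

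Over all genes tested, WT 3 was most often at an end (34.2%), ahead of KO 3 (28.2%). KO 3 stood apart in some measures outside the clock. The summed level of 8 immediate early genes was 43628 in KO 3 and 5549 to 23179 in the others. The summed level of 3 erythroid markers, all detected, was 4841 in KO 3, against 264 to 816 in wild type, 231 and 672 in the other Pkd2 knockouts and 70.9 to 305 in the double knockouts. The summed level of 3 adipocyte markers, all detected in every mouse, was 1632 in KO 3, against 182 to 645 in wild type, 198 and 801 in the other Pkd2 knockouts and 237 to 328 in the double knockouts. DKO 3 had the lowest erythroid sum and an immediate early sum of 11900.1, within the range of the others. The 9 temperature and heat shock genes, a group read because body temperature and heat shock factor feed into the clock, summed to 104938 in DKO 3 and 54202 in KO 3, within the range of 49861 to 107275 of the other mice. The sum hides single genes. DKO 3 was the highest mouse for Hsph1, Hsp90aa1 and Hsf1 and the lowest for Rbm3, against an end position in 21.8% of all genes. KO 3 was the highest for Cirbp and Rbm3 and the lowest for Hsph1 and Hsp90aa1, against 28.2%. Neither was at an end for Hspa1a, Hspa1b, Hspa8 or Dnajb1. The 10 measured glucocorticoid-induced genes, read because glucocorticoids induce Per1, summed to 50449.7 in KO 3, the lowest, and to 116948 in DKO 2. DKO 2 had the highest Per2 and Nr1d2, but Per1 was highest in WT 2. This sum hides single genes too, since Errfi1 alone was 51200 in DKO 2 and 19098 in KO 3. KO 3 was the lowest for Tsc22d3, Sgk1, Zbtb16 and Errfi1 but the highest for Dusp1 (10943), against an end position in 28.2% of all genes. The part of these measures in the clock gene values was not tested. The mouse names of WT 3 and KO 3 carry another prefix than the rest of their groups. That of DKO 3 has the prefix of its group but holds a hyphen that the others lack. Without WT 3 and KO 3, the log2 fold change of Per2 between Pkd2 knockout and wild type became 0.48 and that of Npas2 -0.15. In that setting 0 members passed in any comparison. Without KO 3 and DKO 3 together Clock passed between Pkd2 knockout and wild type (log2 fold change 0.49, limma, adjusted p = 0.0168), Nr1d1 (0.66, adjusted p = 0.0732) and Per1 (-0.98, adjusted p = 0.0957) did not, and 0 members passed in the other 2 comparisons.

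Of 18 other genes of the clock and its regulators, all tested, 0 passed in any comparison with limma or edgeR. At an unadjusted p under 0.05 there were 1 higher (Fbxl21) and 1 lower (Bhlhe40) between Pkd2 knockout and wild type, against 18.0% of all genes. There were 2 lower (Bhlhe40 and Ciart) between double knockout and wild type, against 11.7%, and 0 between double and Pkd2 knockout, against 10.7%. DESeq2 called 1 in all, Bhlhe40, lower in the Pkd2 knockouts (adjusted p = 0.0414), against 7.46% of all genes. Usp2, a deubiquitinase and the most abundant of the list, was at 12476, 13702 and 9407 in wild type, 9942, 10112 and 6706 in the Pkd2 knockouts and 9770.4, 14434 and 6248 in the double knockouts. KO 3 and DKO 3 were its 2 lowest mice and DKO 2 its highest, as for Per2. Cry1, the partner of the PER proteins, was chosen after its values were seen, and was at 419, 379.7 and 459 in wild type, 341, 371 and 134 in the Pkd2 knockouts and 386, 583 and 130.3 in the double knockouts. KO 3 and DKO 3 were again the lowest and DKO 2 the highest. DKO 3 was the highest or lowest mouse for 8 of these 18 genes and DKO 2 for 7, against 21.8% and 20.6% of all genes.

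Of 12 clock-controlled output genes, 1 passed with limma and was lower between Pkd2 knockout and wild type, against 2.40% of all genes, and 0 passed in the other comparisons. Nampt, the rate-limiting enzyme of NAD salvage and a target of CLOCK and BMAL1, was at 9897, 9740.4 and 8905 in wild type, 7109.5, 7171 and 6973 in the Pkd2 knockouts and 8912, 9151 and 7531 in the double knockouts. All 3 Pkd2 knockout mice lay below the other 6, and the gene fell by 0.42 ± 0.08 on the log2 scale (limma, adjusted p = 0.0355). At an unadjusted p under 0.05, 5 of the 12 were lower between Pkd2 knockout and wild type (Nampt, Noct, Sgk1, Scnn1a and Por) and 0 higher, against 18.0% of all genes. At that level 1 was higher between double and Pkd2 knockout (Nampt), against 10.7%, and 1 lower between double knockout and wild type (Por), against 11.7%. DESeq2 called 2, Nampt and Scnn1a, both lower between Pkd2 knockout and wild type, against 7.46%, and 0 in the other comparisons. Por, the electron donor of cytochromes P450 and the most abundant of the list to pass in no comparison, was at 14089 to 16660 in wild type, 12122 to 14699 in the Pkd2 knockouts and 12264 to 13128 in the double knockouts.

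Of the 10 measured glucocorticoid-induced genes, 1 passed with limma and with DESeq2, Ddit4, an inhibitor of mTORC1 signalling, against 2.40% and 7.46% of all genes between Pkd2 knockout and wild type. At an unadjusted p under 0.05, 3 were lower in that comparison (Ddit4, Sgk1 and Errfi1), against 18.0%, 1 was higher between double and Pkd2 knockout (Errfi1), against 10.7%, and 1 lower between double knockout and wild type (Ddit4), against 11.7%. Sgk1 is also on the list of output genes and was counted there too. Ddit4 was at 3751, 5124 and 3129.5 in wild type, 525, 734 and 642 in the Pkd2 knockouts and 652, 2468 and 923 in the double knockouts, and it fell by 2.64 ± 0.42 on the log2 scale between Pkd2 knockout and wild type (limma, adjusted p = 0.0172). Errfi1, the most abundant to pass in no comparison, ran from 31767 to 41746 in wild type, 19098 to 27462 in the Pkd2 knockouts and 24378 to 51200 in the double knockouts. Of the 9 temperature and heat shock genes and the 8 immediate early genes, 0 passed in any comparison with limma. Of the temperature and heat shock genes 2 (Rbm3 and Hspa8) had an unadjusted p under 0.05 and were higher between Pkd2 knockout and wild type, against 18.0% of all genes, of which DESeq2 called 1, Rbm3, against 7.46%. Of the immediate early genes, 1 was lower at that level between double and Pkd2 knockout (Atf3), against 10.7%, and 2 between double knockout and wild type (Atf3 and Nr4a1), against 11.7%, and DESeq2 called 0. The most abundant heat shock gene, Hspa8, ran from 28760.2 to 61981 over the 9 mice, and the most abundant immediate early gene, Egr1, from 1524 to 11499.

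Among 12187 genes with a mean of at least 50, leaving out pseudogenes and symbols that look like clone names (Ciart among them, listed as Gm129), those whose levels over the 9 mice were most like Arntl were M6pr (Pearson r = 0.96), Pnp (0.94), Trim44 (0.94), Ppm1h (0.93), Rn7sk (0.93) and Ksr2 (0.93), and Npas2 ranked 14. The most opposed were Cnksr1 (-0.98), Atxn7l2 (-0.95), Ddah2 (-0.93), Nadsyn1 (-0.93), Col5a2 (-0.93) and Rps6ka2 (-0.93). The genes most like Dbp were Ankrd29 (0.94), Tmem134 (0.94), Ncstn (0.93), Avpi1 (0.92), Pold3 (0.91) and Smagp (0.91), with Tef at rank 58 (0.79). The most opposed to Dbp were Selt (-0.96), Usp14 (-0.96), Zhx2 (-0.95), Esco1 (-0.94), Ube2b (-0.94) and Rab10 (-0.93). These correlations are descriptions over 9 libraries that share the mice, the depth and, for Arntl, the high value of DKO 3.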

How the data were processed

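The authors deposited 1 table of normalized counts per gene for 9 libraries, a signal in which, per the submitters' processing notes, STAR 2.5.0, HTSeq 0.6.1 and DESeq2 were used. Genome build, annotation and strand setting: not given in the sources used here. Of 22161 rows, 25 whose symbols had become dates were left out. Deposited values were whole multiples of 1 read in all 9 libraries (100% whole within 0.05), which gave recovered reads of 36993769 to 47235872 per library. In 7 libraries the value of 1 read lay more than 1% from 1, and for the other 2 the recovery was added after seeing the data.

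Log2(normalized count + 1) was fitted with limma 3.58.1 (R 4.3.3), one mean per group over all 9 libraries, with an intensity trend, on 15717 genes with a mean of at least 10. Two-sided p-values were Benjamini-Hochberg adjusted over all genes tested and called under 0.05. Fold changes on this scale understate those of low genes. Recovered reads were tested with edgeR 4.0.16 (quasi-likelihood) and DESeq2 1.42.0 as alternatives; between Pkd2 knockout and wild type edgeR called 11 genes on 7 libraries and 380 on 9, and limma 377. Tested on simulated data for that comparison (15717 genes), limma recovered 70% of log2 changes of 1 and 98% of changes of 2. False calls there numbered 8 with limma, 9 with edgeR and 50 with DESeq2. The changed genes were drawn at random from those with a mean of at least 50. Npas2, Arntl, Per2 and Per1 varied more than most genes (within-group SD 0.55 to 0.96), so these shares need not hold for them.

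Groups and replicate numbers came from the sample titles. The members and gene lists were chosen with earlier results of these data known, and 1 gene of the lists is not reported here. Named genes were all 10 members, and the called members and the most abundant uncalled member of each other list. Also named were the 6 genes with the highest and the 6 with the lowest correlation with Arntl and with Dbp, pseudogenes and clone-like symbols left out. Summed levels are given for thick ascending limb, dividing cell, distal convoluted tubule, fibroblast, erythroid and adipocyte lists, with counts for thick ascending limb and dividing cells. For the other cell type lists, only the position of the Pkd2 knockout sums against wild type is given. Single values are given for Umod, Avpr2 and the adrenal genes. Genes named for an unadjusted p or a DESeq2 call, the temperature and heat shock genes other than Hspa8, Cry1, Avpr2 and the adrenal genes fall outside this rule. So do Tsc22d3, Zbtb16 and Dusp1. All of these were chosen after their values were seen.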

Additional observations from a re-analysis of the deposited data

How the results depend on the processing

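The 27 alternatives per comparison covered pseudocounts, filters, scaling, weights, samples and count tests; those without KO 3 and DKO 3 together, those on recovered reads of 9 libraries and those of the Arntl and Npas2 correlation were chosen after seeing the data. Between Pkd2 knockout and wild type the number of the 10 members called, 0 in the analysis as reported, was 1 with a pseudocount of 10, with quantile normalization and with only the compared groups (Clock each time), 1 without KO 3 and DKO 3 together (Clock), 1 with DESeq2 on 7 libraries (Nr1d1), 2 with DESeq2 on 9 (Clock and Nr1d1), 3 with array quality weights (Clock, Per1 and Nr1d1), and 0 to 1 when each replicate was left out in turn, Clock being called without DKO 1 or DKO 3. Between double knockout and wild type it was 1 with DESeq2 on 9 libraries (Clock), and between double and Pkd2 knockout it was 0 throughout. The labels do not say that replicate numbers pair the mice. Same-numbered mice correlated between -0.14 and 0.21 in their deviations from the group means, and the other pairs between -0.23 and 0.17. Such correlations over so few mice cannot show whether mice shared a litter or a day. With the replicate number as a block, 1 member was called between Pkd2 knockout and wild type (Per1, log2 fold change -1.13, limma, adjusted p = 0.0428). The cause of these changes was not tested. All genes called between Pkd2 knockout and wild type numbered 377 as reported, 217 with the block, 3219 with array quality weights, 262 without the trend, 11, 296 and 13 with edgeR, DESeq2 and limma on 7 libraries, 380 and 1172 with edgeR and DESeq2 on 9, 70 to 437 with each replicate left out, 517 without WT 3 and KO 3 and 650 without KO 3 and DKO 3. For double over Pkd2 knockout, with 62 as reported, these were 15 with the block, 615 with weights, 31 with quantile normalization, 26 with only the compared groups, 10, 152 and 11 on 7 libraries, 472 with DESeq2 on 9, 8 to 154 with each replicate left out, and 308 and 436 without the pairs of mice. For double knockout over wild type, with 36 as reported, these were 20 with the block, 295 with weights, 24 without the trend, 10, 111 and 11 on 7 libraries, 388 with DESeq2 on 9, 18 to 58 with each replicate left out, and 111 without WT 3 and KO 3.

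Of the single-gene values under alternatives, 754 kept direction and side of the threshold, 14 passed it and 42 changed sign, none of them called. Between Pkd2 knockout and wild type, Tef (-0.02 as reported) was 0.028 with quantile normalization and 0.0598, 0.0559 and 0.0599 with edgeR, DESeq2 and limma on 7 libraries, and -0.11 to 0.0361 with each replicate left out. Per2 (-0.02) was 0.35 with weights, 0.0684 and 0.0758 with edgeR and DESeq2 on 9 libraries, 0.48 without WT 3 and KO 3, 0.38 without KO 3 and DKO 3, and -0.28 to 0.38 with each left out. Arntl (0.12) was -0.0105 with limma on 7 libraries, -0.17 without KO 3 and DKO 3, and -0.17 to 0.45 with each left out. Npas2 (0.27) was -0.15 without WT 3 and KO 3, -0.24 without KO 3 and DKO 3, and -0.24 to 0.70 with each left out. Between double and Pkd2 knockout, Nr1d2 was -0.0159 with quantile normalization and -0.0243 to 0.0703 with each left out, Per2 was -0.29 without WT 3 and KO 3 and -0.29 to 0.56 with each left out, Tef was 0.12 without KO 3 and DKO 3 and -0.22 to 0.0694 with each left out, Per3 was -8.41e-05 with limma on 7 libraries and -0.15 to 0.25 with each left out, and Npas2 was -0.35 to 0.94 with each left out. Between double knockout and wild type, without KO 3 and DKO 3 Npas2 was -0.0729, Per3 0.13 and Tef 0.0525; with each replicate left out Npas2 was -0.0729 to 1.17, Per3 -0.28 to 0.13, Tef -0.24 to 0.0525 and Per2 -0.28 to 0.54. The Pearson r of Arntl with Npas2 stayed at an exact permutation p under 0.05 with other pseudocounts and with each mouse left out, from 0.71 without DKO 3 to 0.94 without KO 3. At 3 mice a group the 95% interval of Arntl between Pkd2 knockout and wild type ran from -1.19 to 1.44 on the log2 scale, and that of Npas2 from -1.18 to 1.72, so changes within those bounds were not excluded.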
